A study of Mus musculus with 75 samples.

Results

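Antigen presentation was followed in obstructed mouse kidneys through 10 genes, picked by symbol with earlier results of these data known: the MHC class II chains H2-Aa, H2-Ab1 and H2-Eb1, the invariant chain Cd74, the class I heavy chains H2-K1 and H2-D1, their light chain B2m, the immunoproteasome subunits Psmb8 and Psmb9, and the peptide transporter subunit Tap1. All 10 were found among the 32245 genes of the count table and passed the filter on low counts in every arm of the study. Whole kidneys of adult mice were sequenced as 75 bulk RNA-Seq libraries, 3 days after unilateral ureter obstruction (UUO), with the unobstructed contralateral (CL) kidney as control. Mice of both sexes were used, on a mixed background apart from C57BL6/J mice in the antibody arm.

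The 12 groups fall into 3 arms. In the ABT arm, C57BL6/J or wild-type mice received ABTAA, an antibody that binds ANGPT2 and activates TIE2, or a control human IgG Fc (IgG CL 8 and UUO 8 libraries, ABT CL 7 and UUO 7). In the Ve arm, VeKO mice carried a tamoxifen-induced deletion of Veptp (gene symbol Ptprb) driven by Cdh5-CreERT2, which acts in endothelial cells. The deletion was induced in young mice, well before surgery, and their VeWT controls were noninduced Veptp wt/lox mice that carry the same Cre (VeWT CL 7 and UUO 8, VeKO CL 6 and UUO 8), so tamoxifen and the deletion cannot be told apart. The study's methods give fewer VeWT samples than there are libraries labelled VeWT UUO, so these libraries may not all be separate VeWT mice. In the Pb arm, PbKO mice carried a whole-body deletion of Pdgfb induced by Actb-CreERT2 shortly before the experiment, and PbWT controls were Cre-negative Pdgfb wt/lox or lox/lox mice (4 libraries in each of the 4 groups). Sham-operated kidneys were included with the PbWT CL kidneys and are not marked in the labels.

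Class II molecules are pairs of an alpha and a beta chain that assemble with the invariant chain, load peptides of endocytosed proteins after the invariant chain is degraded, and are known mainly from dendritic cells, macrophages and B cells; interferon-gamma can induce them in other cells, including kidney tubule. Class I molecules are made by nearly all nucleated cells and pair with beta-2-microglobulin. Their peptides come from the proteasome, whose catalytic subunits can be exchanged for interferon-induced ones to give the immunoproteasome, and are carried into the endoplasmic reticulum by the TAP transporter. Transcription of class II genes depends on the coactivator CIITA, and that of class I genes on its relative NLRC5, both acting at promoter elements that include an X box and a Y box.

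In the genome (GRCm38, mm10), 8 of the members lie on chromosome 17 within 1271 kb, in the mouse MHC: H2-K1 at 33996012 to 34000619, Psmb9 at 34182030 to 34187330, Tap1 at 34187556 to 34197225, Psmb8 at 34198195 to 34201454, H2-Ab1 at 34263227 to 34269418, H2-Aa at 34282744 to 34287823, H2-Eb1 at 34305867 to 34316674 and H2-D1 at 35263094 to 35267497. B2m lies on chromosome 2 at 122147687 to 122153082, and Cd74 also lies outside the MHC. Promoter sequences from RefSeq (GRCm38.p6) matched 8 of the 10 members, without H2-Ab1 and Cd74. Shown here, 5' to 3', are the 250 bases before the start of 2 class II genes, of a class I heavy chain and of its light chain, each of which rose in IgG-treated mice, and the stretch between Psmb9 and Tap1.

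H2-Eb1 promoter, chr17:34305617-34305866, plus strand: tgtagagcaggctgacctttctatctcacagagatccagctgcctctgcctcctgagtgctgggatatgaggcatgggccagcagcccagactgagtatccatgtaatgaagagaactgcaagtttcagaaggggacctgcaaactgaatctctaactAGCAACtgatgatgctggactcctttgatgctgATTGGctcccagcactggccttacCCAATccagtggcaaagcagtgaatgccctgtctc
H2-Aa promoter, chr17:34287824-34288073, minus strand: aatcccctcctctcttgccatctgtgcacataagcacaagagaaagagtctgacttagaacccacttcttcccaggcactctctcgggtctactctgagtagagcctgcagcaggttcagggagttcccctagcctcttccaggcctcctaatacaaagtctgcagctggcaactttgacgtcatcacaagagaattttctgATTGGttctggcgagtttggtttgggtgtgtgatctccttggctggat
H2-D1 promoter, chr17:35262844-35263093, plus strand: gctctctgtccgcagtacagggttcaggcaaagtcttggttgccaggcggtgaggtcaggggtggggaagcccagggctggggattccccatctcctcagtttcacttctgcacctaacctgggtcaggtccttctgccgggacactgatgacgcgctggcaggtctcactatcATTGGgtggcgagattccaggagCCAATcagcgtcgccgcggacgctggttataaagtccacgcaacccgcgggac
B2m promoter, chr2:122147437-122147686, plus strand: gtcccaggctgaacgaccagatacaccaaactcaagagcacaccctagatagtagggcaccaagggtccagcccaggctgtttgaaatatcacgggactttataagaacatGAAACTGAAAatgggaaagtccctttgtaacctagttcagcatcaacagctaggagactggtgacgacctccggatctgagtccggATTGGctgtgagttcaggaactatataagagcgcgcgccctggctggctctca
Region between Psmb9 and Tap1, chr17:34187331-34187555, plus strand: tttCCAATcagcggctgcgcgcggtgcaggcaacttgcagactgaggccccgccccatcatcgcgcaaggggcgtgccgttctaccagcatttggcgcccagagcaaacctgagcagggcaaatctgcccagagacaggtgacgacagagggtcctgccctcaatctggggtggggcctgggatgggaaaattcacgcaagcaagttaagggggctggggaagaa

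The capitals mark matches to 3 motifs searched on both strands: the core of the interferon-stimulated response element, GAAA and GAAA parted by 2 free bases; ATTGG, the inverted CCAAT of the Y box, which appears as CCAAT where it lies on the other strand; and AGCAAC, the core of an X box. ATTGG was found in 7 of the 8 member promoters, against 33.8% of 32851 promoters of the same length. In H2-Aa its first base lay at position -48 from the start, in H2-Eb1 at -59 with a further match on the other strand, in H2-D1 at -76 and in B2m at -53. AGCAAC was found in H2-Eb1 alone of the 8, at -92, against 12.2% of all promoters. The core of the interferon-stimulated response element was found in B2m alone, at -139, against 2.98% of all promoters. The Psmb8 promoter held none of the 3 motifs. Psmb9 and Tap1 are transcribed away from each other from the 225 bases shown, so a single CCAAT counts as a match for both. A match here is an exact run of letters and was not tested for binding. Forms of these elements that differ from it by a base were not counted, so a promoter without a match may still hold the element.

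The libraries held 172827 to 2341800 counts in all (median 757897), of which the 10 members took 0.0769 to 0.218% of the counts of a CL library and 0.180 to 0.641% of those of a UUO library. The labelled tissue was checked against tubule and podocyte markers, all of which had at least 1 count in every library. Libraries with "_" in their name (30) differed from the other 45, called plain-named here, in 62.4% of the genes tested in the Ve arm and in 39.7% in the ABT arm, with the groups held constant in edgeR's quasi-likelihood test, and what the form of the name stands for is not given in the sources used here. VeKO CL replicate 2 stood apart from the 12 other CL libraries of its arm. Its level of Havcr1, a marker of tubular injury, was 247 CPM (counts scaled to the effective library size), against 4.66 to 32.5 in those 12 and 300 to 1192 in the 16 UUO libraries of the arm. In the Ve arm, VeWT UUO replicates 5 and 6 and VeKO UUO replicates 7 and 8 carry in their names the number of a CL library of the other genotype. Their deviations correlated with those of that library at 0.159 to 0.544, where Ve libraries of different numbers correlated at -0.535 to 0.441. The names put the genotype of these 4 libraries in question, the correlations do not settle it, and they were kept as labelled. Counts of Xist together with counts of Y-linked genes, at least 10 of each, were found in 24 libraries, among them all 4 libraries labelled PbKO UUO. Of these 24, 22 were plain-named and 2 were named with "_". The targeted gene Ptprb had a log2 fold change of -0.63 (SE 0.36) in VeKO against VeWT CL kidneys and -0.69 (SE 0.33) in UUO kidneys, and the libraries of both genotypes overlapped. Pdgfb went against the label in the CL kidneys: it was at 16.9, 17.8, 25.4 and 17.3 CPM in the libraries labelled PbKO and at 4.52, 9.95, 7.52 and 20.3 CPM in PbWT. In the UUO kidneys it was at 34.0, 36.6, 39.2 and 41.4 CPM in the libraries labelled PbKO and at 57.5, 55.2, 44.1 and 58.9 CPM in PbWT. The exons that the lox sites flank are not stated in those sources, and transcripts that keep their other exons may be counted in either knockout.

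In IgG-treated mice, obstruction was accompanied by a rise of all 10 members over the contralateral kidney. These mice had received control IgG Fc and, per the study's methods, the analgesic carprofen before and after surgery. The class II group rose 3.30- to 4.32-fold and the class I side (heavy chains, B2m, immunoproteasome and Tap1) 2.41- to 3.47-fold. All 10 passed the threshold of an adjusted p under 0.05 by the quasi-likelihood test of edgeR, adjusted by Benjamini-Hochberg over 9579 genes, where 16.3% of all genes were called higher. The median log2 fold change of the members was 1.62, beside 0.02 over all genes tested. Without TMM normalization these medians were 1.83 and 0.23, and the calls over all genes were 2493 higher and 1086 lower, against 1561 and 1740 with it.

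H2-Aa, the alpha chain of the I-A molecule, was at 91.6, 130 and 188 CPM (lowest, median and highest of the 8 libraries) in IgG CL kidneys and at 282, 429 and 588 CPM in IgG UUO kidneys. H2-Ab1, its partner beta chain, was at 68.0, 100 and 127 CPM in CL and at 240, 291 and 552 CPM in UUO kidneys. H2-Eb1, the beta chain of the I-E molecule, was at 31.7, 71.6 and 112 CPM in CL and at 150, 294 and 373 CPM in UUO kidneys. In each of these chains every UUO library lay above every CL library. Cd74, the invariant chain that occupies the peptide groove of class II during assembly, was at 56.4, 109 and 221 CPM in CL and at 246, 544 and 736 CPM in UUO kidneys, again without overlap. The log2 fold changes were 1.72 (SE 0.19, adjusted p = 1.57e-08) for H2-Aa, 1.75 (SE 0.18, adjusted p = 2.09e-09) for H2-Ab1, 1.83 (SE 0.23, adjusted p = 7.98e-08) for H2-Eb1 and 2.11 (SE 0.26, adjusted p = 8.44e-08) for Cd74.

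Among the class I genes, H2-K1 was at 166, 330 and 482 CPM in IgG CL and at 561, 900 and 1200 CPM in IgG UUO kidneys. H2-D1 was at 169, 254 and 318 CPM in CL and at 440, 623 and 767 CPM in UUO kidneys. B2m was at 348, 377 and 441 CPM in CL and at 702, 971 and 1218 CPM in UUO kidneys. The heavy chains and the light chain thus rose without overlap between the kidneys, with log2 fold changes of 1.39 (SE 0.20), 1.27 (SE 0.15) and 1.33 (SE 0.14). H2-K1 and H2-D1 shared 9.63% and 12.8% of their 50-base words with other genes, mostly other class I heavy chains and each other, so reads may be split between them, whereas at most 0.488% was shared by any other member.

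Psmb8, the immunoproteasome subunit that replaces the catalytic subunit encoded by Psmb5, was at 8.00, 15.1 and 22.2 CPM in IgG CL and at 33.9, 44.5 and 82.4 CPM in IgG UUO kidneys. Psmb9, which replaces the subunit encoded by Psmb6, was at 8.00, 18.0 and 22.2 CPM in CL and at 30.4, 49.6 and 82.4 CPM in UUO kidneys. Tap1 was at 7.05, 13.5 and 22.9 CPM in CL and at 17.7, 38.9 and 57.1 CPM in UUO kidneys. Tap1 was the only member whose ranges overlapped in this comparison, so 9 of 10 did not overlap, where 4.44% of all genes lay entirely higher in UUO kidneys. Their log2 fold changes were 1.80 (SE 0.29, adjusted p = 9.43e-06), 1.52 (SE 0.25, adjusted p = 1.01e-05) and 1.31 (SE 0.27, adjusted p = 0.000177). These 3 genes rest on few reads, with 2 to 21 counts of Psmb8 per IgG CL library.

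**Figure D1:**
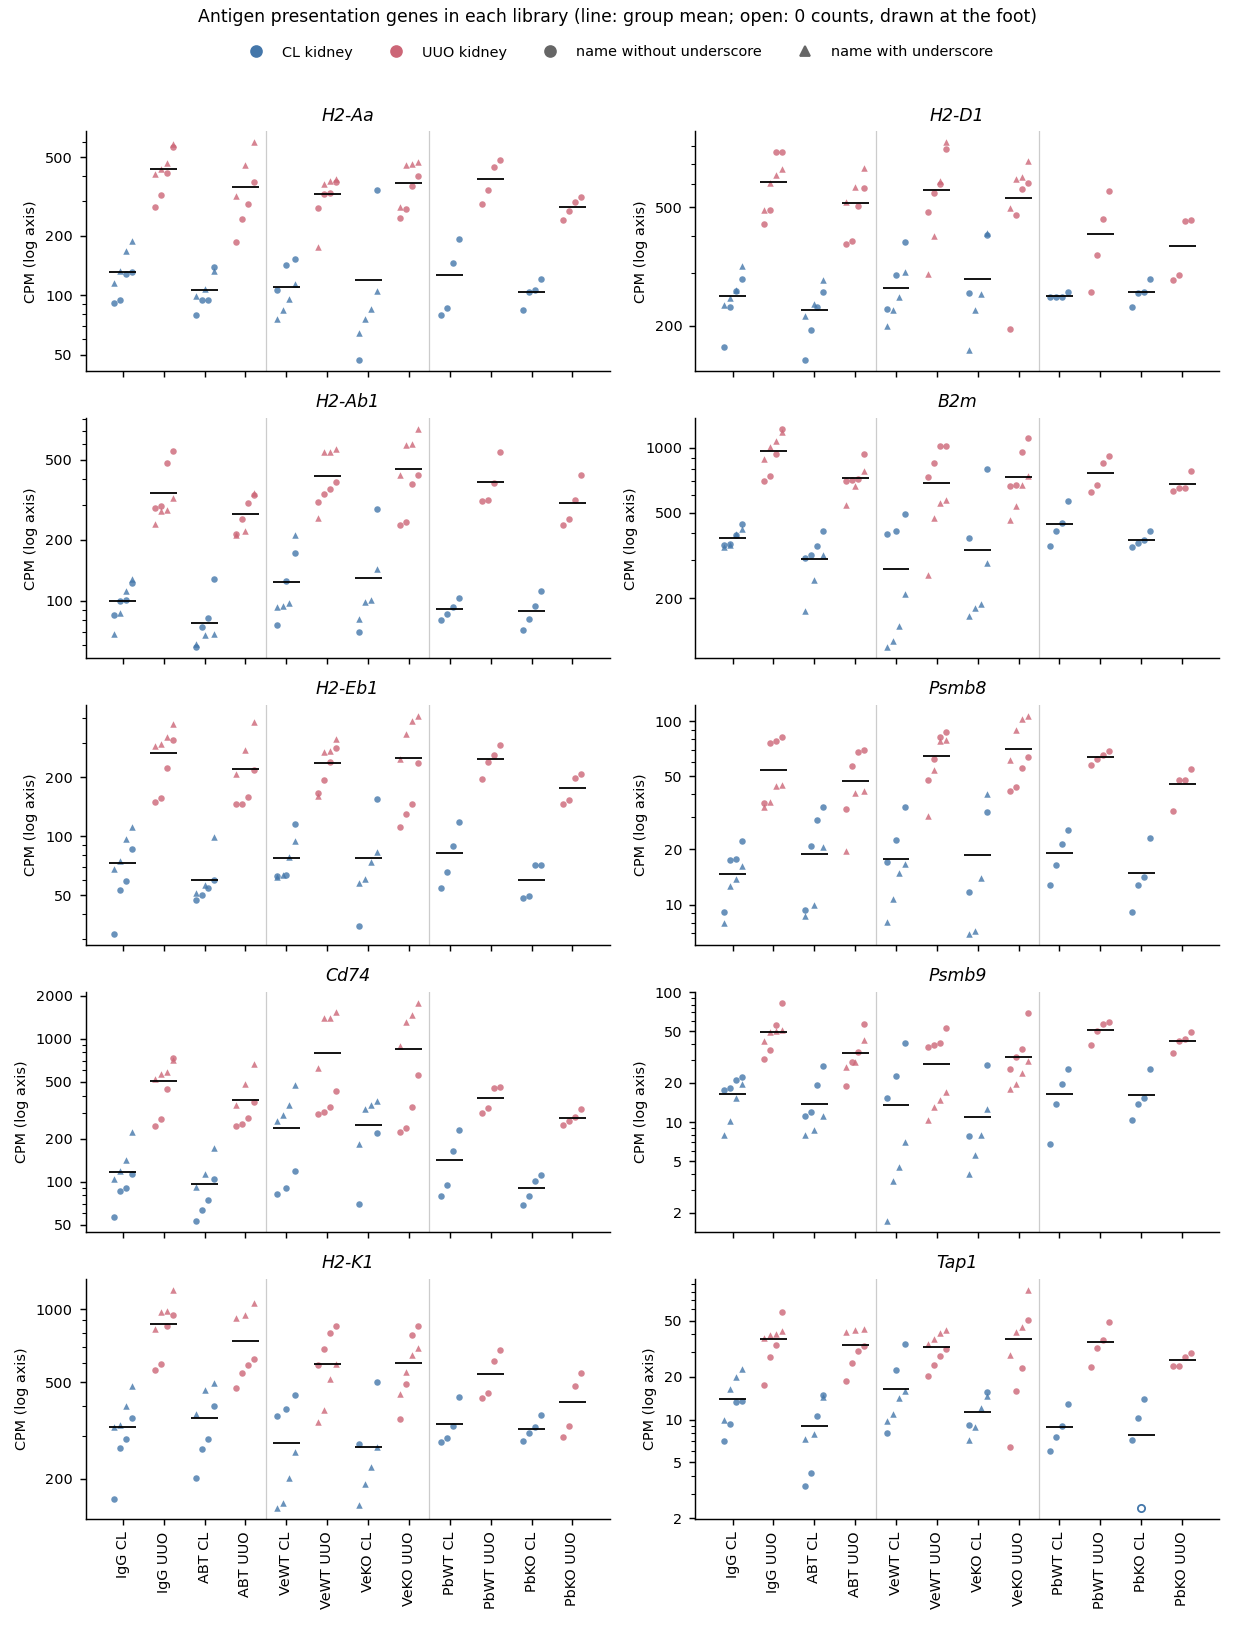
Level of each of the 10 genes in every library, in CPM on a log axis, by group. Circles are plain-named libraries and triangles those named with "_", lines are group means, and the open marker is the library with 0 counts of Tap1 (PbKO CL replicate 1); in IgG mice UUO libraries lie above CL libraries for 9 of the 10 genes, H2-Aa at 282 to 588 against 91.6 to 188 CPM, whereas in VeKO mice the kidneys overlap for all but Psmb8.

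The rise after obstruction was also found in the 5 other groups of mice, though not for every member. In ABTAA-treated mice all 10 members were called higher, where 12.6% of all genes were, with log2 fold changes from 1.06 for H2-K1 to 1.98 for Cd74. There 7 of 10 members did not overlap between kidneys, against 4.06% of all genes, and H2-K1, Psmb8 and Psmb9 overlapped. In VeWT mice 9 members were called higher, where 10.0% of all genes were, and Psmb9 did not pass (log2 fold change 1.19, SE 0.50, adjusted p = 0.0996). In VeKO mice 8 were called higher, where 4.47% of all genes were, and B2m (1.13, SE 0.37, adjusted p = 0.0552) and Psmb9 (1.64, SE 0.56, adjusted p = 0.0657) did not pass. In PbWT mice all 10 were called higher, where 17.9% of all genes were. In the mice labelled PbKO 8 were called higher, where 3.95% of all genes were, and the heavy chains H2-K1 (0.35, SE 0.19, adjusted p = 0.308) and H2-D1 (0.50, SE 0.19, adjusted p = 0.122) did not pass. Without TMM normalization higher and lower calls over all genes numbered 1592 and 796 in ABT (1210 and 1197 with it), 1388 and 543 in VeWT (1195 and 999), 613 and 242 in VeKO (533 and 415), 4453 and 1153 in PbWT (1959 and 2118) and 567 and 152 in PbKO mice (432 and 264). The members called without it were 10, 10, 9, 10 and 8 in the same order.

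All 4 class II members were called in each of these comparisons, Cd74 in VeKO mice with the least margin (adjusted p = 0.0326). The median log2 fold change of the 4 class II members was 1.79 in IgG, 1.85 in ABT, 1.66 in VeWT, 1.74 in VeKO, 1.61 in PbWT and 1.59 in PbKO mice. On the class I side the medians were 1.36 in IgG, 1.24 in ABT, 1.16 in VeWT, 1.23 in PbWT and 1.17 in PbKO mice and highest in VeKO mice, beside -0.01 to 0.04 over all genes in the 6 comparisons. Differences between these groups of mice were not tested. In VeKO mice the median over all members was 0.73 in plain-named libraries and 2.19 in those named with "_". Psmb8 was called in all 6, with log2 fold changes from 1.31 in ABT to 2.00 in VeKO mice. Tap1 was called in all 6 as well, from 1.13 in VeWT to 1.98 in PbWT mice.

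In PbWT mice H2-Ab1 had the highest log2 fold change of the 10 members and the heavy chains the lowest, with B2m close to them at 0.79 (SE 0.15), and differences between members were not tested. H2-Ab1 was at 85.9, 92.4, 79.7 and 104 CPM in PbWT CL and at 384, 312, 317 and 546 CPM in PbWT UUO kidneys, which is 2.10 on the log2 scale (SE 0.19, adjusted p = 5.95e-09). H2-K1 was at 294, 432, 284 and 330 CPM in PbWT CL and at 675, 609, 449 and 431 CPM in PbWT UUO kidneys, which is 0.69 on the log2 scale (SE 0.18, adjusted p = 0.00358). H2-Ab1 was thus several fold apart between the kidneys, whereas the H2-K1 ranges overlapped at their edges. In the libraries labelled PbKO, H2-K1 was at 287, 367, 326 and 308 CPM in CL and at 544, 296, 330 and 481 CPM in UUO kidneys. H2-D1 was at 287, 260, 231 and 257 CPM in CL and at 449, 296, 285 and 454 CPM in UUO kidneys. The heavy chains overlapped between kidneys in both genotypes, and the other 8 members did not, against 16.9% of all genes in PbWT and 6.21% in PbKO mice. Tap1 had 0 counts in PbKO CL replicate 1.

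**Figure D2:**
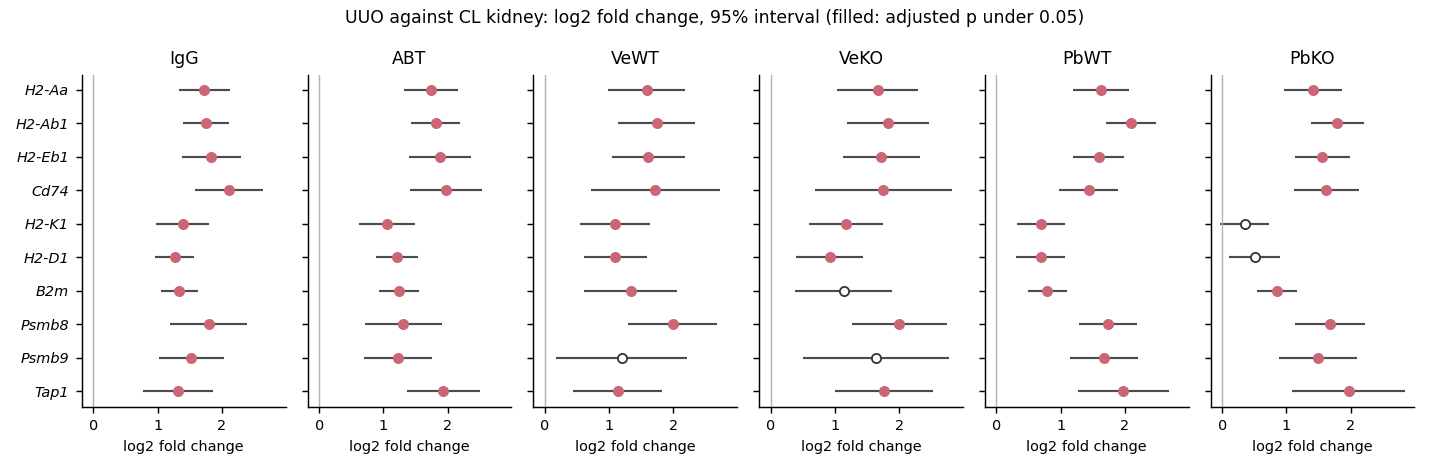
Log2 fold change of UUO against CL kidneys for the 10 genes in each of the 6 groups of mice, with 95% intervals. Filled points have an adjusted p under 0.05 in edgeR's quasi-likelihood test; all 60 points lie above 0, and the 5 open points are Psmb9 in VeWT, B2m and Psmb9 in VeKO, and H2-K1 and H2-D1 in PbKO mice.

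In the Ve arm 4 of the 10 members differed with the form of the library name, where 62.4% of all genes did. With the groups held constant, libraries named with "_" had higher Cd74 (log2 difference 1.78, SE 0.17, adjusted p = 3.57e-11) and lower Psmb9 (-1.48, SE 0.22), B2m (-1.06, SE 0.14) and H2-K1 (-0.63, SE 0.14). B2m was at 398 to 492 CPM in plain-named VeWT CL libraries and at 119 to 210 CPM in those with "_", and Cd74 at 82.1 to 119 and 265 to 475 CPM. With this form as a covariate all 10 members were called higher in both genotypes, Psmb9 with log2 fold changes of 1.17 (SE 0.30, adjusted p = 0.00246) in VeWT and 1.43 (SE 0.33, adjusted p = 0.00161) in VeKO mice. In VeWT mice 3 members did not overlap between kidneys (H2-Aa, H2-Ab1 and H2-Eb1), against 3.26% of all genes, and in VeKO mice only Psmb8, against 0.697%. In VeKO mice the median log2 fold change of the members was 1.70, but 0.73 over plain-named libraries (2 CL, replicate 2 among them, and 4 UUO), where 0 members and 0 of 7778 genes were called by edgeR's quasi-likelihood test (4 members and 540 genes with an unadjusted p under 0.05), and 2.19 over those named with "_". Without VeKO CL replicate 2, B2m (1.58, adjusted p = 0.00385) and Psmb9 (1.93, adjusted p = 0.0243) passed in VeKO mice and Cd74 did not (1.71, adjusted p = 0.0519). Cd74 also lost its call in VeKO mice without any 1 of 6 other libraries (CL replicates 1, 3 and 6, UUO replicates 5, 6 and 7; adjusted p = 0.0532 to 0.0838), and H2-D1 without CL replicate 3, 4 or 6 (adjusted p = 0.0516 to 0.0673). Without the 4 UUO libraries whose number belongs to a CL library of the other genotype, 7 members were called in VeWT mice, where Cd74 and Tap1 lost their calls, and 6 in VeKO mice, where Cd74 and H2-D1 did. Calls over all genes with the covariate, and without these 4 libraries, are not given here, so these member counts stand without a share.

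The ratio of Cd74 to H2-Aa counts shows the same split within libraries. It was between 2.83 and 4.52 in the 16 Ve libraries named with "_" (median 3.58) and between 0.59 and 1.50 in the 13 plain-named ones (median 0.94). In the ABT arm, whose libraries are of both forms, it was between 0.615 and 1.36, and in the Pb arm, which is all plain-named, between 0.762 and 1.19. UUO and CL libraries of the Ve arm mixed within each of the 2 ranges. In the ABT arm 6 of the 10 members differed with the form of the name (H2-Aa, H2-Eb1, Cd74, H2-K1, Psmb8 and Tap1), where 39.7% of all genes did. The log2 difference in Cd74 was 0.69 there, and the difference between the arms was not tested.

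**Figure D3:**
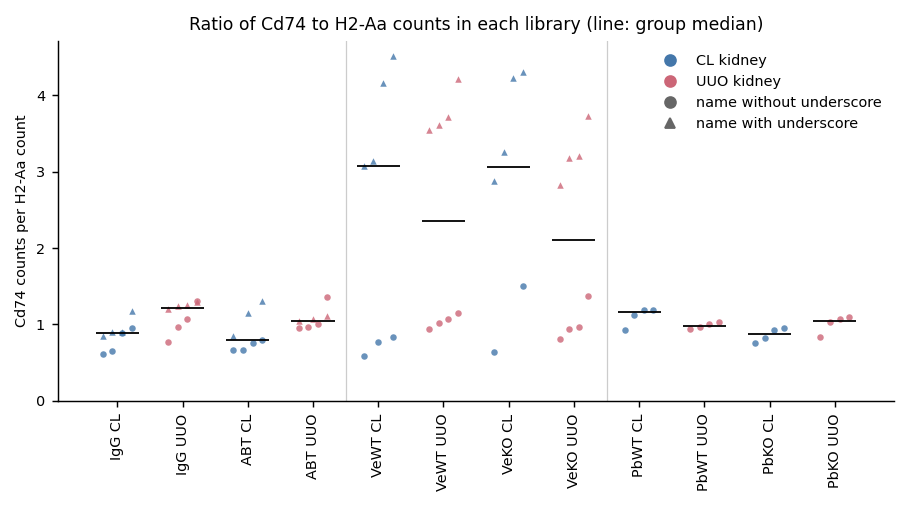
Counts of Cd74 divided by counts of H2-Aa in each library, by group; lines are group medians, circles are plain-named libraries and triangles those named with "_". The 16 Ve libraries named with "_" lie between 2.83 and 4.52, apart from all other libraries.

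The other genes of both pathways were read from lists of named genes. Of 7 tested genes of class II loading and regulation, 6 were called higher in IgG mice, and 6, 6, 5, 6 and 5 in ABT, VeWT, VeKO, PbWT and PbKO mice, with a median log2 fold change of 1.69 in IgG mice. H2-DMa and H2-DMb2 encode chains of the H2-DM molecule, which exchanges the invariant chain peptide for others, and rose by 2.25 (SE 0.27) and 3.57 (SE 0.43) on the log2 scale in IgG mice. Ctss, a protease that degrades the invariant chain, rose by 2.42 (SE 0.24). Ciita, the class II coactivator, rose in all 6 groups of mice, from 1.69 (SE 0.35, adjusted p = 0.000243) in IgG to 3.11 (SE 0.49, adjusted p = 9.15e-05) in VeKO mice.

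Of the genes of class I loading and regulation, 8 of 11 were called higher in IgG, 7 of 11 in ABT, 5 of 11 in VeWT, 4 of 11 in VeKO, 7 of 10 in PbWT and 6 of 10 in PbKO mice. Psmb10, the remaining exchanged subunit of the immunoproteasome, rose in all 6, from 1.41 (SE 0.31) in VeWT to 2.16 (SE 0.26) in PbWT mice. Tap2, the partner of Tap1 in the transporter, rose in all 6 as well, from 1.05 (SE 0.26) in PbKO to 1.68 (SE 0.22) in PbWT mice. Tapbp, which tethers class I molecules to the transporter, rose by 0.93 (SE 0.14) in IgG mice. Nlrc5 had log2 fold changes of 1.41 (adjusted p = 0.00255) in IgG and 1.44 (adjusted p = 0.00315) in ABT mice, and of 1.24 (adjusted p = 0.0547) and 1.47 (adjusted p = 0.0596) in VeWT and VeKO mice, where it did not pass. It did not pass the filter on low counts in the Pb arm. Of the other class I heavy chains, 3 of 6 were called higher in IgG and in ABT, 2 of 10 in VeWT, 3 of 10 in VeKO, 4 of 8 in PbWT and 1 of 8 in PbKO mice. Over all genes the shares called higher were 16.3% in IgG, 12.6% in ABT, 10.0% in VeWT, 4.47% in VeKO, 17.9% in PbWT and 3.95% in PbKO mice. H2-Q4 rose by 1.36 (SE 0.24) and H2-M3 by 1.52 (SE 0.30) in IgG mice.

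Outside PbWT mice, few genes of the constitutive proteasome core were called. Over all genes, 16.3% were called higher in IgG and 12.6% in ABT mice, and in PbWT mice lower calls outnumbered higher ones. Of its 14 genes, 1 was called higher in IgG mice (Psma5, 0.34, SE 0.12) and in ABT mice (0.50, SE 0.13), none in VeWT and VeKO mice by edgeR's quasi-likelihood test, its exact test or DESeq2 (0 of 14 with an unadjusted p under 0.05 in the first), and 5 were called lower in PbWT mice, among them Psmb3 (-0.58, SE 0.14), Psmb7 (-0.48, SE 0.12) and Psmb6 (-0.38, SE 0.12). In PbKO mice 1 of the 14 was called higher (Psmb4, 0.39, SE 0.12), and 3 had an unadjusted p under 0.05. Without TMM normalization these counts moved, with the direction turned in PbWT mice: 4 of the 14 were called higher in IgG mice, in PbWT mice 5 were called higher and none lower, and in PbKO mice 2 were called higher. Psmb5 and Psmb6, which Psmb8 and Psmb9 replace, had log2 fold changes of 0.12 (SE 0.19) and -0.01 (SE 0.17) in IgG mice. The share of immunoproteasome subunits among all 6 catalytic subunits (counts of Psmb8, Psmb9 and Psmb10 over these and Psmb5, Psmb6 and Psmb7) had a median of 6.21% in IgG CL and 17.2% in IgG UUO kidneys, with UUO libraries between 13.3 and 21.0%. The CL medians of the other groups were 5.21 to 7.75% and the UUO medians 13.4 to 21.1%. The share was 6.86% in VeKO CL replicate 2 and reached 18.2% in VeKO CL replicate 4, a library named with "_". VeKO UUO kidneys were at 11.2 to 16.8% in plain-named libraries and at 21.2 to 38.7% in those named with "_", and VeWT UUO kidneys at up to 18.4% and at 19.2 to 25.7%, so within each form every UUO library of VeKO mice lay above every CL library.

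**Figure D4:**
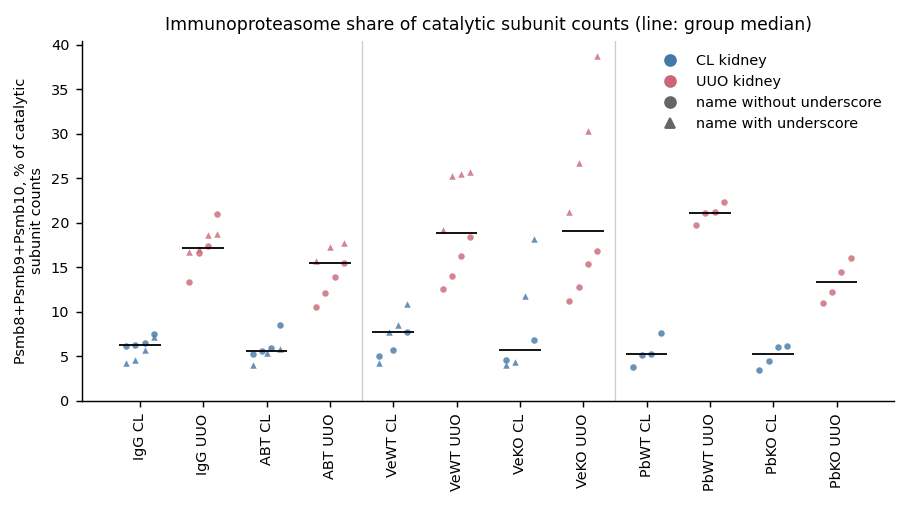
Share of Psmb8, Psmb9 and Psmb10 among the counts of all 6 catalytic proteasome subunits in each library, in percent, by group; lines are group medians, circles are plain-named libraries and triangles those named with "_". Shares are 13.3 to 21.0% in IgG UUO kidneys, and 19.7 to 22.3% in PbWT against 11.0 to 16.1% in PbKO UUO kidneys.

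Interferon-gamma signalling genes were called higher in 7 of 10 in IgG, ABT and VeWT, 6 in VeKO, 9 in PbWT and 4 in PbKO mice. Irf1, a transcription factor of the interferon response, rose in all 6 groups, from 1.47 (SE 0.35) in VeKO to 1.98 (SE 0.20) in PbWT mice, and Socs3, a feedback inhibitor of cytokine signalling, rose by 4.28 (SE 0.51) in IgG mice. Ifng itself had 0 counts in 70 of 75 libraries and at most 1 count in any, so its level was not measurable at this depth. Of 6 costimulation genes, Cd40 was the only one tested in the ABT and Pb arms, and it rose by 2.84 (SE 0.42) in IgG mice.

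Markers of leukocytes rose beside the members. In bulk kidneys, more cells of a type and more RNA per cell cannot be told apart. The summed level of 8 macrophage markers was 93.3 to 155 CPM in IgG CL and 293 to 465 CPM in IgG UUO kidneys, and all 8 were called higher, as were 7 in ABT, 7 in VeWT, 6 in VeKO, 8 in PbWT and 5 in PbKO mice. The summed level of 6 dendritic cell markers was 8.89 to 28.3 CPM in IgG CL and 19.4 to 44.7 CPM in IgG UUO kidneys, and none of the 6 passed the filter on low counts in the ABT arm. In the Ve arm 3 of the 6 were tested, of which 3 were called higher in VeWT mice (median log2 fold change 2.64) and 1 in VeKO mice, and in the Pb arm 1 was tested and not called. B cell markers summed to at most 12.3 CPM and T cell markers to at most 36.3 CPM in any library. Tubule markers moved the other way, from a sum of 8492 to 11936 CPM in IgG CL to 4004 to 6640 CPM in IgG UUO kidneys. Of these 6 markers, 5 were called lower in IgG, 5 in ABT, 4 in VeWT, 4 in VeKO, 5 in PbWT and 3 in PbKO mice, with a median log2 fold change of -1.30 in IgG mice. The part of these cells in the rise of the members was not tested.

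The comparison of ABTAA with IgG asks whether TIE2 activation changes these genes in the obstructed kidney. All 10 members had a log2 fold change below 0, from -0.04 for Tap1 to -0.49 for Psmb9, with a median of -0.28, which was -0.42 over plain-named libraries and -0.12 over those named with "_". None was called by edgeR's quasi-likelihood test, where 0% of 9579 genes were, and 340 genes had an unadjusted p under 0.05, among them B2m and Psmb9; DESeq2 called none either. B2m was at 702, 971 and 1218 CPM in IgG UUO and at 545, 710 and 934 CPM in ABT UUO kidneys (lowest, median and highest), a log2 fold change of -0.42 with a 95% interval from -0.72 to -0.13. Cd74 was at 246, 544 and 736 CPM and at 244, 344 and 663 CPM, a log2 fold change with an interval from -0.95 to 0.09. The groups overlapped for all 10 members, where 0.0104% of all genes lay entirely lower. In the CL kidneys 8 of 10 members also lay below 0, with a median of -0.31, and 3 of them had an unadjusted p under 0.05 (H2-Ab1, B2m and Tap1), again with 0% of all genes called. The test of the difference between these effects, the interaction of treatment and obstruction, called 0% of all genes and gave no member an unadjusted p under 0.05, with a median of -0.07. Macrophage markers summed to 215 to 406 CPM in ABT and 293 to 465 CPM in IgG UUO kidneys, with log2 fold changes below 0 in 7 of 8 (median -0.24), and leukocyte markers to 133 to 210 and 170 to 278 CPM, with 3 of 3 below 0. Of the tubule markers 6 of 6 lay above 0 (median 0.27). By edgeR's quasi-likelihood test, its exact test and DESeq2 0 of these markers were called (0 with an unadjusted p under 0.05 in the first), and their part in the members' values was not tested.

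For endothelial Veptp deletion the members showed no common direction that held in both forms of library. In UUO kidneys 9 of 10 lay above 0, with a median log2 fold change of 0.12 and a range from -0.08 for H2-D1 to 0.20 for Tap1, and none had an unadjusted p under 0.05. By edgeR's quasi-likelihood test 0% of 11916 genes were called, and 426 had an unadjusted p under 0.05; DESeq2 called 1 gene of the whole table and no member. The intervals were wide, from -0.83 to 1.04 for Cd74 and from -0.79 to 1.07 for Psmb9. H2-Aa was at 176, 347 and 386 CPM in VeWT UUO and at 246, 380 and 476 CPM in VeKO UUO kidneys. Its groups overlapped, as did those of every other member, where 0% of all genes lay entirely higher. Over the plain-named libraries alone the median of the members was -0.23, and over those named with "_" it was 0.36. All 8 macrophage markers had log2 fold changes below 0 (median -0.32), as had 5 of 5 endothelial markers (median -0.55), while 6 of 6 tubule markers lay above 0 (median 0.21). By edgeR's quasi-likelihood test, its exact test or DESeq2 0 of these were called, with 2, 2 and 1 at an unadjusted p under 0.05 in the first, and their part in the members' values was not tested. Without the 4 UUO libraries whose number belongs to a CL library of the other genotype, the median of the members was 0.14 and 0 were called. The comparison of CL kidneys and the interaction called 0% of all genes, and none of the members had an unadjusted p under 0.05 in either.

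In the Pb arm all 10 members lay lower in the UUO kidneys labelled PbKO than in PbWT, but none passed the threshold. Log2 fold changes ran from -0.15 for H2-D1 to -0.48 for Psmb8, with a median of -0.40 beside -0.02 over all genes. In edgeR's quasi-likelihood test 6.60% of 10923 genes were called lower and 0 of the members were, while 4 members had an unadjusted p under 0.05 (H2-Aa, H2-Eb1, H2-K1 and Psmb8), as had 3387 genes. DESeq2 called no member, edgeR's exact test called 4 (H2-Aa, H2-Eb1, Cd74 and Psmb8), and without TMM normalization 7 were called. Over all genes the calls were 1314 higher and 721 lower with TMM, and 657 higher and 2502 lower without it. The exact test's calls over all genes are not given here, so its 4 members are not set against a share.

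Psmb8 was at 65.2, 62.5, 57.4 and 68.9 CPM in PbWT UUO and at 47.6, 48.0, 32.2 and 54.9 CPM in PbKO UUO kidneys. It was the only member whose groups did not overlap, where 9.58% of all genes lay entirely lower, and its log2 fold change was -0.48 (95% interval -0.87 to -0.08, adjusted p = 0.0893). H2-Eb1 was at 293, 239, 196 and 261 CPM in PbWT and at 146, 199, 153 and 209 CPM in PbKO UUO kidneys, a log2 fold change of -0.46 (-0.84 to -0.09, adjusted p = 0.0779). H2-Aa was at 449, 341, 289 and 483 CPM and at 242, 315, 266 and 295 CPM, a log2 fold change of -0.47 (-0.88 to -0.06, adjusted p = 0.106). For H2-Aa and H2-Eb1, PbWT replicate 3 was the lowest of its group and lay within the range of the PbKO libraries. Cd74 was at 449, 328, 300 and 456 CPM and at 248, 265, 285 and 324 CPM (adjusted p = 0.172). B2m was at 917, 674, 625 and 849 CPM and at 776, 652, 650 and 629 CPM (adjusted p = 0.425), and its ranges overlapped widely.

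**Figure D5:**
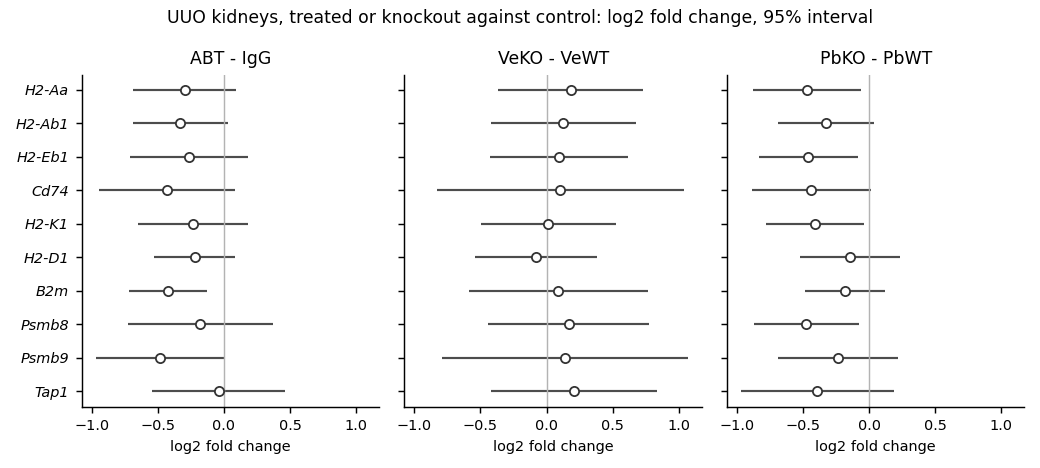
Log2 fold change in UUO kidneys of ABT against IgG, VeKO against VeWT and PbKO against PbWT for the 10 genes, with 95% intervals. No point is filled, since none has an adjusted p under 0.05 in edgeR's quasi-likelihood test; all 10 lie below 0 for ABT and for PbKO, and 9 of 10 above 0 for VeKO.

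Other genes of the pathways were called in this comparison. Ctss differed in the libraries labelled PbKO by -1.08 on the log2 scale (SE 0.19, adjusted p = 0.000179), H2-DMb2 by -0.74 (SE 0.26, adjusted p = 0.0437), Tap2 by -0.87 (SE 0.21, adjusted p = 0.00436) and H2-M3 by -1.17 (SE 0.29, adjusted p = 0.00546). These were 2 of 7 genes of class II loading and regulation, 1 of 10 of class I loading and regulation, and 1 of 8 other heavy chains, where 6.60% of all genes were called lower. Of the interferon-gamma signalling genes 5 of 10 were lower, among them Socs3 (-1.49, SE 0.28), Irf8 (-0.90, SE 0.23) and Irf1 (-0.63, SE 0.18). Ciita (-0.49, SE 0.25, adjusted p = 0.176) and Psmb10 (-0.52, SE 0.22, adjusted p = 0.110) did not pass. Of the constitutive proteasome core 5 of 14 were higher, among them Psmb3 (0.52, SE 0.14), Psmb4 (0.42, SE 0.11) and Psmb7 (0.41, SE 0.12), but without TMM normalization 0 of 14 were called and their median was -0.02. The immunoproteasome share was 19.7, 21.1, 21.2 and 22.3% in PbWT and 11.0, 16.1, 12.2 and 14.5% in PbKO UUO kidneys, a quantity singled out after its values were seen and given with no test. For single libraries the exact binomial 95% interval ran from 17.8 to 21.7% for PbWT replicate 1 and from 7.67 to 15.2% for PbKO replicate 1, covering counting error only.

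Macrophage markers summed to 307 to 480 CPM in PbWT and to 192 to 247 CPM in PbKO UUO kidneys, with 5 of 8 called lower, and leukocyte markers to 207 to 299 and 98.7 to 174 CPM, with 3 of 3 called lower. Tubule markers summed to 3164 to 3838 CPM in PbWT and to 5153 to 8377 CPM in PbKO UUO kidneys, with 5 of 6 called higher. Endothelial markers had log2 fold changes below 0 in 5 of 5 (median -0.53), with 2 called lower. The part of these in the lower members was not tested. In the CL kidneys 9 of 10 members lay below 0, of which Cd74 (-0.63) was the only one with an unadjusted p under 0.05, and 0% of all genes were called. The interaction of genotype and obstruction called 8.55% of all genes (727 higher and 207 lower, or 312 and 668 without TMM normalization) and none of the members, none of which had an unadjusted p under 0.05. For H2-K1, whose rise passed in PbWT and not in PbKO mice, the difference between the rises was -0.35 on the log2 scale (95% interval -0.88 to 0.19, adjusted p = 0.474).

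The members varied together within groups as well. Over the 75 libraries, after the mean of each group and form of library name was subtracted from log2(CPM + 1), the 6 pairs of class II members had Pearson correlations from 0.79 to 0.89. The 15 pairs among the other 6 members ran from 0.26 to 0.79, the highest being H2-K1 with H2-D1, and the 24 pairs across the sets from 0.22 to 0.74. Among 10404 genes with a mean of at least 10 CPM, those most like the mean of the class II members were Arpc1b (0.75), Lyz2 (0.73), Vcam1 (0.70), Lgals3bp (0.70) and Ly6e (0.69). Lyz2 is lysozyme of macrophages and Vcam1 an adhesion molecule of activated endothelium. Those most like the mean of the other 6 members were Arpc1b (0.67), Spp1 (0.66), Bgn (0.65), Tmsb4x (0.65) and Bst2 (0.65), the last an interferon-induced membrane protein. These values are descriptions, since all genes of a library share its depth and its mixture of cells. The plain-named VeKO CL libraries number only 2, replicate 2 among them, with H2-Aa at 46.8 and 344 CPM. How much these 2 libraries weigh in the correlations and in the genes most like the members was not tested.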

How the data were processed

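RNA of whole kidneys was made into Smart-seq3 type libraries and sequenced by the authors on an Illumina HiSeq. The deposited table holds raw counts per gene: reads of 4 wells per sample were merged, mapped with STAR 2.7.3a to mm10, deduplicated with UMI-tools 1.1.4 and summarised with featureCounts of Subread 1.4.6-p5, per the submitters' processing notes and the study's methods. The gene annotation is not given in the sources used here. From these counts, each arm was fitted in 1 model over its 4 groups with edgeR 4.0.16 (R 4.3.3; filterByExpr by group, TMM, quasi-likelihood test, Benjamini-Hochberg over all genes of the arm, threshold 0.05), and CPM levels use the same TMM factors. Normalization was separate by arm, so levels were not tested across arms. Each arm had 5 comparisons. Alternatives were no TMM, DESeq2 1.42.0, no filter, edgeR's exact test, the form of library name, the replicate block and leaving out each library.

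The 10 genes and all lists were chosen with earlier results of these data known. Named beside the members are, per list and comparison, up to 3 called genes with the lowest adjusted p, and Ciita, Nlrc5, Ifng, Irf1, Psmb5, Psmb6, Psmb10 and Tap2 in any case; 1 further gene of this rule is not reported here. H2-Ea and H2-T10 were not analysed here. Nothing in the labels says how samples relate to animals, so p-values measure the spread between these samples. Among ABTAA-treated mice, CL and UUO samples with the same number deviated together (correlations 0.199 to 0.455 over 3 pairs of libraries, against -0.308 to 0.140 for different numbers). Whether the same number marks the same mouse was not tested. The fits were tested on simulated data before use. Python 3.11.15 was used for ranges, motifs and figures.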

Additional observations from a re-analysis of the deposited data

Results flagged for a closer look

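Of 120 combinations of gene and group, 11 held a sample far from the others of its group by Dixon's test, which chance gives in about 1 in 20. VeKO CL replicate 2 accounts for 5 of them: H2-Aa was at 344 CPM (next highest 105), H2-Ab1 at 284 (143), H2-K1 at 499 (277), B2m at 797 (382) and Psmb9 at 27.5 (12.7). The same library had 278084 counts in all, a summed leukocyte marker level of 165 CPM (23.1 to 58.1 in the 12 other CL libraries of its arm, 91.4 to 271 in the UUO libraries), a summed macrophage marker level of 211 CPM (89.7 to 168 and 176 to 471) and Lcn2 at 91.6 CPM (0 to 17.7 and 99.0 to 371). The part of these in its members' levels was not tested.

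In ABT CL kidneys, H2-Ab1 was at 128 CPM in replicate 4 (next highest 81.6) and H2-Eb1 at 98.7 CPM in replicate 7 (59.6). In VeKO UUO kidneys, H2-D1 was at 195 CPM in replicate 4 (next lowest 470.0) and Psmb9 at 69.4 CPM in replicate 2 (next highest 36.3). H2-D1 in PbWT CL replicate 2 was at 260.1 CPM, where the next highest was 249.7, in a group whose whole range was narrow. B2m in PbKO UUO replicate 1 was at 776 CPM (next highest 652).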

How the results depend on the processing

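For UUO against CL kidneys, 376 of 410 values of single members kept their direction and their side of the threshold under the alternatives other than leaving out a library, and no direction changed. Over plain-named VeKO libraries alone (2 CL, 4 UUO), 0 members were called by edgeR's quasi-likelihood test, with 4 at an unadjusted p under 0.05, as were 0 of 7778 genes. The median log2 fold change of the members was 0.73 there and 2.19 over VeKO libraries named with "_", against 1.70 over all. With the replicate block, which was fitted over libraries named with "_" only, it was 2.41. Leaving out 1 library gave 6 to 10 called members in VeKO and 9 to 10 in VeWT mice, where Psmb9 passed without VeWT CL replicate 1 (1.95, adjusted p = 0.00572, edgeR). With the replicate block and the form of the name, over libraries named with "_" only, all 10 members were called in ABT, VeWT and VeKO mice. The block changed no call in ABT mice, and calls over all genes with it are not given here. In the Ve arm samples with the same number correlated at 0.098 to 0.544 (median 0.30), and 4 of these 8 pairs cross genotypes. Samples with different numbers correlated at -0.535 to 0.441 (median -0.049), and whether the numbers pair samples was not tested.

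For PbKO against PbWT UUO kidneys, 7 members were called without TMM, 4 without the filter, 4 by the exact test and 0 to 1 when 1 library was left out: H2-Eb1 without PbWT CL replicate 1, PbWT CL replicate 2 or PbWT UUO replicate 3, and H2-K1 without PbKO UUO replicate 1. Without TMM the median of all genes lay at -0.29 and that of the members at -0.68, a difference of -0.39. Calls over all genes without the filter and by the exact test are not given here. H2-D1 ranged from -0.31 to 0.057 when 1 library was left out.

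Directions that changed were all of log2 differences that passed no threshold. Tap1 in ABT against IgG was 0.025 with the form as a covariate, 0.10 over libraries named with "_" and -0.17 to 0.062 with 1 library left out. In VeKO against VeWT, over plain-named libraries, H2-Aa was -0.071, H2-Ab1 -0.17, H2-Eb1 -0.55, Cd74 -0.075, H2-K1 -0.28, B2m -0.11, Psmb8 -0.46, Psmb9 -0.18 and Tap1 -0.54. H2-D1 was 0.21 over libraries named with "_" and 0.023 without the 4 UUO libraries whose number belongs to a CL library of the other genotype, and H2-K1 -0.021 without TMM. With 1 library left out, Cd74 ranged from -0.14 to 0.31, H2-D1 from -0.18 to 0.044, H2-K1 from -0.074 to 0.11, B2m from -0.038 to 0.19, Psmb9 from -0.059 to 0.31, H2-Ab1 from -0.00031 to 0.22, H2-Eb1 from -0.044 to 0.20 and Tap1 from -0.12 to 0.37. The cause was not tested. Psmb8, Psmb9 and Tap1 rest on few reads per library, and how far this limits the differences that could be detected was not tested.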
